A study of Mus musculus with 6 samples.

Results

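Primordial germ cell-like cells (PGCLCs) induced by switching on Nanog were compared at day 4 of induction with PGCLCs induced by cytokines, on Illumina mouse BeadChip arrays with 2 arrays per group. The probes described were those with 1 gene symbol and a detection p below 0.01 on both arrays of either group. The detection p places a probe's brightness among beads that match no transcript, so a low value means a signal above background. By this choice 6475 genes were described, of 6823 tested, through 8778 of the 45281 probes of the array. Of the 8778 probes, 7749 were detected on both arrays of both groups, 515 met the rule through Nanog PGCLCs alone and 514 through cytokine PGCLCs alone. Just inside the limit, 74 probes with a detection p of 0.00962 had a median of 6.98 normalized log2 intensity in their brighter group, and just outside it 41 probes at 0.0107 had a median of 6.96.

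Nanog PGCLCs were made by moving epiblast-like cells into low-binding wells in GK15 medium with doxycycline at 0.7 µg/ml, which induces the Nanog transgene. Cytokine PGCLCs were made in the same base medium with 500 ng/ml BMP4, 500 ng/ml BMP8A, 100 ng/ml stem cell factor (SCF), 50 ng/ml epidermal growth factor (EGF) and 1000 U/ml LIF. Mouse embryonic stem cells (mESCs), measured in the same series, were kept on fibronectin in N2B27 medium with the GSK3 inhibitor CHIR99021 at 3 µM, the MEK inhibitor PD0325901 at 1 µM and LIF at 1000 U/ml, and their levels are given beside the PGCLC values. All 3 groups were male, of strain 129 x MF1, and carried the Nanog transgene. The promoter of the transgene, the number of clones and any sorting of the cells were not stated in what was used here. Nothing in the labels says that the 2 arrays of a group came from separate cultures, so a p-value here rests on the spread between those arrays alone, possibly a technical one.

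Primordial germ cells are the embryonic founders of sperm and eggs. In the mouse embryo they arise from epiblast cells that receive BMP signals from the neighbouring extraembryonic tissue. BMP receptors activate SMAD proteins, which switch on target genes such as the Id family, and the transcription factors Blimp1 (Prdm1), Prdm14 and AP2gamma (Tfap2c) then set up the germ cell programme. Nanog is a homeobox transcription factor of pluripotent cells that germ cells also express.

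Replicate arrays correlated at 0.9931 for Nanog PGCLCs, 0.9942 for cytokine PGCLCs and 0.9909 for mESCs, against 0.9707 to 0.9725 between the arrays of both PGCLC groups and 0.9237 to 0.9263 between PGCLCs and mESCs. Between 8788 and 10028 probes were detected per array. The mESC replicate 1 stood apart for adult globin probes (chosen after their values were seen), for example 11.42 for Hba-a1 against 6.36 on mESC replicate 2, and results on these genes are given with and without it. Of 7 germ cell markers, 6 were tested and all 6 were detected on both arrays of both PGCLC groups; Prdm1 had no named probe. Only probes detected on at least 1 of the 6 arrays carry names here, so a gene with no named probe may be on the array and undetected, and its level is not given. Their summed intensity was 11357 and 11673 in Nanog PGCLCs, 14097 and 14488 in cytokine PGCLCs, and 4444 and 4201 in mESCs. None of the 5 endoderm markers or 4 fibroblast markers had a named probe among those tested, so the presence of these cells was not tested.

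Nanog itself, the gene switched on, had 2 probes that went opposite ways. The brighter probe had normalized log2 intensities of 12.05 and 12.25 in Nanog PGCLCs, 12.53 and 12.53 in cytokine PGCLCs, and 12.34 and 12.47 in mESCs. The other probe read 12.73 and 12.60 in Nanog PGCLCs, 10.94 and 10.80 in cytokine PGCLCs, and 11.49 and 11.56 in mESCs. The second probe was therefore highest on both Nanog PGCLC arrays, by a log2 difference of 1.80 ± 0.10 (SE) from cytokine PGCLCs (adjusted p = 3.5e-05, limma), while the brighter probe was lowest there, by -0.38 ± 0.11 (adjusted p = 0.0414). That lower call was lost when any 1 of the 4 PGCLC arrays was left out, with differences between -0.47 and -0.28 over all settings. It was also lost with median scaling, with cyclic loess normalization and with no filter on dim probes. Which part of the transcript each probe reads, and so whether it reads the transgene, was not stated in what was used here.

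A probe was called where limma's test over all 10673 probes tested gave an adjusted p below 0.05, and differences are Nanog PGCLCs minus cytokine PGCLCs on the log2 scale with their standard errors (SE, n = 2 arrays each). Among the 8778 member probes, 957 were called higher in Nanog PGCLCs (10.9%) and 888 lower (10.1%), against 10.4% and 9.72% of all probes tested. Differences of at least 2-fold were called for 112 member probes higher (1.28%) and 99 lower (1.13%), against 1.14% and 1.11% of all probes tested. Differences were small for most genes. The median absolute difference over the members was 0.188 and the 99th percentile 1.41, beside a median absolute difference of 0.115 between the Nanog PGCLC arrays and 0.101 between the cytokine PGCLC arrays. By gene, with 1 probe each, 10.5% of all genes tested were called higher and 10.2% lower. The list counts below stand beside these shares. Detected on both Nanog PGCLC arrays and neither cytokine PGCLC array were 157 genes, and 168 showed the reverse. Of these, 105 were called higher and 116 lower, respectively. Such genes were picked by detection in the brighter group, so the direction of these calls follows largely from the choice. Over all probes tested the higher share of calls was 51.7%, and 64.8% with the arrays scaled to 1 median. Without Nanog replicate 1 or 2, 1224 or 1138 of all probes tested were called, and without cytokine replicate 1 or 2, 794 or 907, against 2145 (20.1%) with all arrays.

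**Figure D1:**
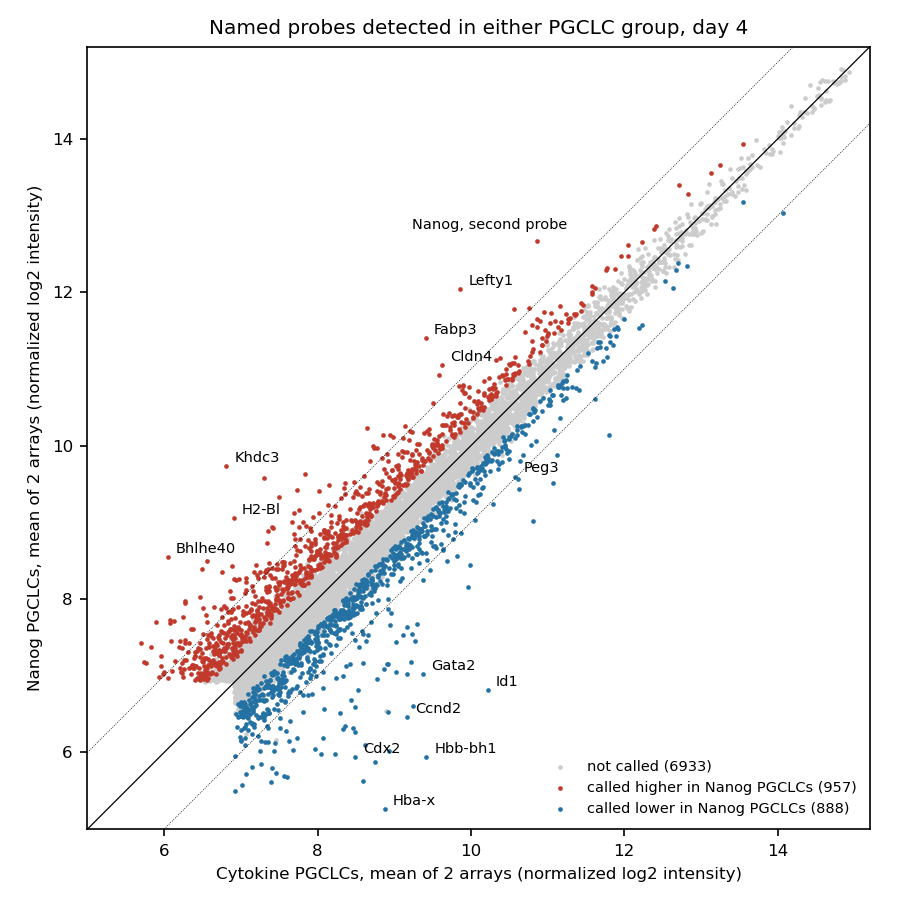
Mean normalized log2 intensity of each member probe in Nanog PGCLCs (vertical axis) against cytokine PGCLCs (horizontal axis), 2 arrays each. Red points mark the 957 probes called higher in Nanog PGCLCs, blue points the 888 called lower and grey points the rest, the solid line is equality and the dotted lines are 2-fold differences. Id1, Hba-x, Hbb-bh1 and Gata2 lie far below the lower dotted line, while Lefty1, Khdc3 and the second Nanog probe lie above the upper one.

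BMP response genes were lower in Nanog PGCLCs. Of 12 tested BMP and SMAD response genes, 10 fell in Nanog PGCLCs, 1 rose and 1 was not called, with a median difference of -1.85, against 10.2% of all 6823 genes tested that fell and a median over them of -0.02. Id1, a helix-loop-helix protein that blocks differentiation factors and is a direct SMAD target, read 6.83 and 6.80 in Nanog PGCLCs, 10.23 and 10.21 in cytokine PGCLCs, and 6.08 and 6.13 in mESCs. It was not detected in Nanog PGCLCs, where it was at least 10.0-fold lower (adjusted p = 1.52e-06). Here a fold written "at least" sets the bright group's mean against the lowest signal of a detected probe, or the dim probe's own signal where that was higher, because the dim level is only a bound. In a bulk culture, fewer cells with a transcript and less transcript per cell cannot be told apart.

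Id2 and Id3, paralogues of Id1, showed the same split between the groups. Id2 read 5.67 and 5.69 in Nanog PGCLCs, 7.62 and 7.58 in cytokine PGCLCs, and 5.60 and 5.50 in mESCs, which made it at least 1.63-fold lower in Nanog PGCLCs (adjusted p = 2.02e-05). Id3 read 6.26 and 6.13 in Nanog PGCLCs, 8.05 and 8.09 in cytokine PGCLCs, and 6.18 and 6.25 in mESCs, at least 2.25-fold lower (adjusted p = 2.25e-05). Neither was detected in Nanog PGCLCs or in mESCs, so both were detected only in the group given BMP4 and BMP8A. Id4, the remaining family member, was not called, with a difference of 0.21. The promoters of Id2 and Id3 are shown because both genes were detected in cytokine PGCLCs and not in Nanog PGCLCs. They run from 250 bases before to 50 after the gene's start in RefSeq, build GRCm38.p6, with Id2 at chr12:25096043-25096342 on the minus strand and Id3 at chr4:136143572-136143871 on the plus strand, and capitals mark matches on either strand to a GC-rich SMAD element, spelled GGCGCC, and to the SMAD box, which is spelled CAGAC.
Id2 promoter: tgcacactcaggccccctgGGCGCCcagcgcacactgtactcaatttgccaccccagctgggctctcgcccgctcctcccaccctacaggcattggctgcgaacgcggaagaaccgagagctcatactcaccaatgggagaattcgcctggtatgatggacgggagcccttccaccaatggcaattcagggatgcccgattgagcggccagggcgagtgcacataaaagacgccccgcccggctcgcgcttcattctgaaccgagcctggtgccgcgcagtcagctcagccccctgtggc
Id3 promoter: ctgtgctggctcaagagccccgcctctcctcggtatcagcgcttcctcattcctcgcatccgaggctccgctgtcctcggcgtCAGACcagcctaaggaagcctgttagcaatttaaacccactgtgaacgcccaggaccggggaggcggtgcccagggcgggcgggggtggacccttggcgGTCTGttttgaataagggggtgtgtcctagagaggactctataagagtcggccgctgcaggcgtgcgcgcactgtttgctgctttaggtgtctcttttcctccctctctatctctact
The Id2 window held the GC-rich element 231 bases before the start and no SMAD box. In the Id3 window the SMAD box began 167 bases before the start on the gene's strand and 68 bases before it on the other strand, and the GC-rich element was absent. These letters are common, since the GC-rich element was in 11.9% and the SMAD box in 49.6% of 32851 RefSeq promoters of the same length, and a match describes the sequence only.

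Transcription factors of the same response fell with the Id genes. Cdx2, a regulator of trophoblast and posterior mesoderm, read 5.77 and 6.11 in Nanog PGCLCs, 8.52 and 8.45 in cytokine PGCLCs, and 6.56 and 6.40 in mESCs, at least 3.01-fold lower (adjusted p = 2.25e-05). Gata2, a factor of blood progenitors and trophoblast, was detected in both PGCLC groups at 6.92 and 7.13 in Nanog PGCLCs against 9.33 and 9.41 in cytokine PGCLCs (7.16 and 6.61 in mESCs), a 5.09-fold decrease (log2 difference -2.35 ± 0.17, adjusted p = 0.000125). Evx1, a homeobox gene of the posterior primitive streak, fell by 1.82 ± 0.10 and Hey1, a transcriptional repressor that BMP and Notch signals induce, fell by 1.69 ± 0.09. For Evx1 the mESC arrays, of which the lower read 8.94, were nearer the 9.30 and 9.25 of cytokine PGCLCs than the 7.52 and 7.39 of Nanog PGCLCs. Tbx3, a T-box factor of naive cells and mesoderm, fell by 1.00 ± 0.11. Msx1 (-2.02) and Smad6 (-0.64), named after their values were seen, complete the 10 genes that fell. Neither was detected on all 4 PGCLC arrays, so the size of these differences is uncertain. Hhex, a homeobox gene of anterior endoderm and blood vessels, rose by 0.55 ± 0.12. Leaving out cytokine replicate 2 left 9 of the 10 decreases, without Smad6, and the call of Hhex was lost without Nanog replicate 1, cytokine replicate 1 or cytokine replicate 2. Where probes not detected on all 4 PGCLC arrays were left out of the fit, 4 genes of the list were called lower, since the other decreases dropped out with their probes.

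Genes that carry the BMP signal were mostly not called. Of 8 tested BMP ligands, receptors and SMADs, each read by its brightest probe, 2 rose, 0 fell and 6 were not called, against 10.5% of all genes tested that rose and 10.2% that fell. Bmp4, the ligand, read 9.88 and 9.83 in Nanog PGCLCs, 9.14 and 9.07 in cytokine PGCLCs, and 9.67 and 9.59 in mESCs (log2 difference 0.75 ± 0.09, adjusted p = 0.00142). Twsg1, a secreted BMP-binding protein, rose by 0.69 ± 0.11. Acvr1, Bmpr1a, Bmpr2, Gdf3, Smad1 and Smurf1 were not called, at -0.27 to 0.36 on the log2 scale; with mESC replicate 1 or 2 left out, Bmpr2 was called higher as well. Second, dimmer probes gave other calls for 2 of these genes. That of Bmpr1a was called lower (adjusted p = 0.0186), undetected at 6.59 and 6.55 in Nanog PGCLCs and detected at 7.32 and 6.96 in cytokine PGCLCs, and that of Smad1 was called higher (0.60).

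**Figure D2:**
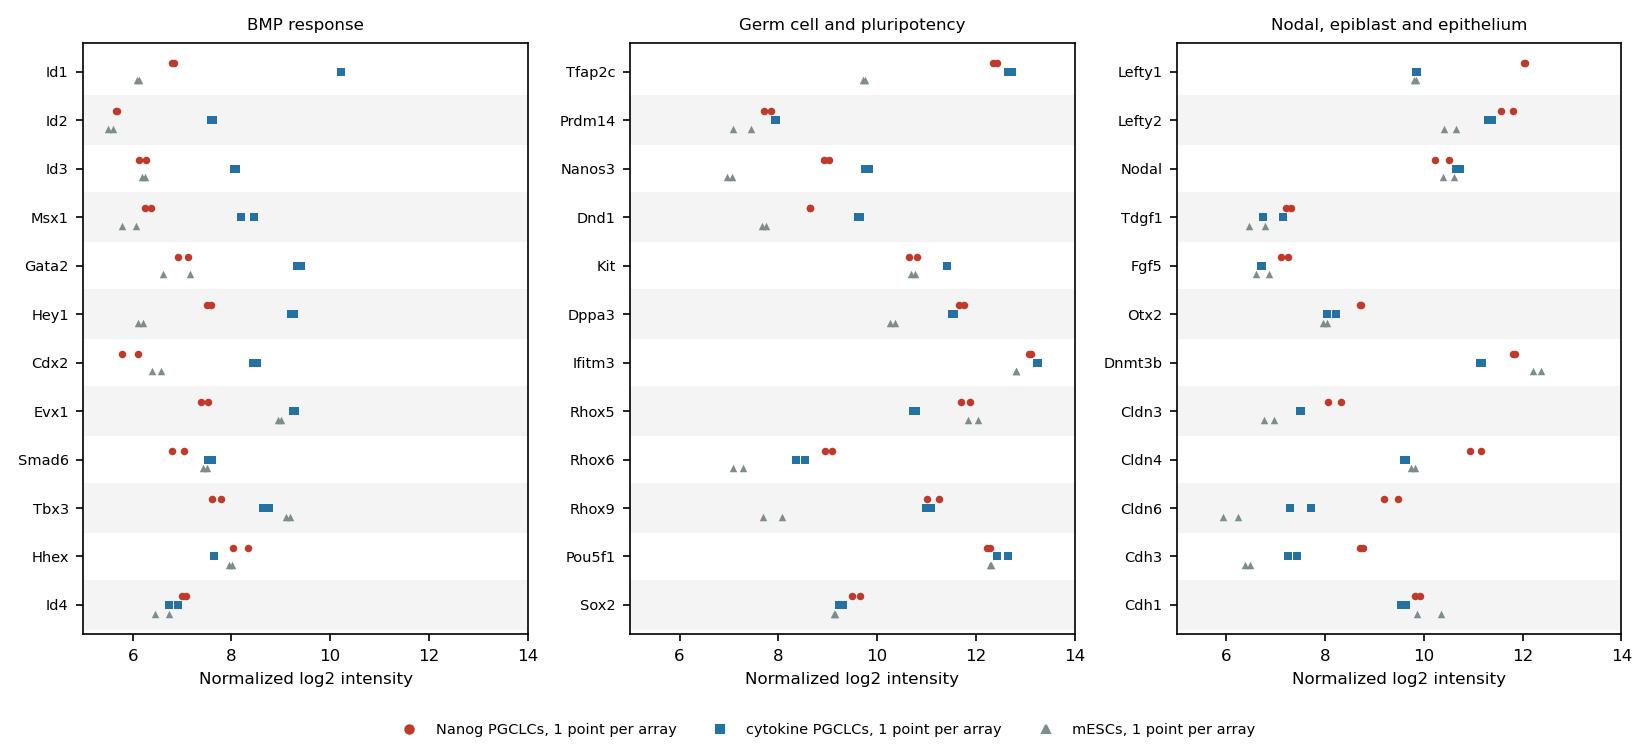
Normalized log2 intensity (horizontal axes) of BMP response genes, germ cell and pluripotency genes, and Nodal, epiblast and epithelial genes, with 1 point per array for Nanog PGCLCs (red circles), cytokine PGCLCs (blue squares) and mESCs (grey triangles). From Id1 to Tbx3 the BMP response genes lie lower on both Nanog PGCLC arrays. In the germ cell panel Dnd1, Nanos3, Kit and Tfap2c were called lower and Rhox5 and Rhox6 higher in Nanog PGCLCs.

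Embryonic globin transcripts were lower in Nanog PGCLCs, where none was detected. Hba-x, the zeta-like alpha-globin of primitive red cells, read 5.29 and 5.23 in Nanog PGCLCs, 8.82 and 8.93 in cytokine PGCLCs, and 5.23 and 5.25 in mESCs, at least 3.95-fold lower in Nanog PGCLCs (adjusted p = 1.52e-06). Hbb-bh1, an embryonic beta-like globin, read 5.70 and 6.17 in Nanog PGCLCs, 9.39 and 9.44 in cytokine PGCLCs, and 6.30 and 5.96 in mESCs, at least 5.75-fold lower (adjusted p = 2.18e-05). Hbb-y, the other embryonic beta-like globin, read 5.99 and 6.04 in Nanog PGCLCs, 8.97 and 8.89 in cytokine PGCLCs, and 6.41 and 6.50 in mESCs, at least 4.09-fold lower (adjusted p = 4.89e-06). All 3 were detected on both cytokine PGCLC arrays and on no other array. Globin genes are close in sequence, so the split of signal among them is uncertain.

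The promoters of Hba-x and Hbb-y, an alpha-like and a beta-like embryonic globin, are shown because both genes were detected in cytokine PGCLCs and in no other group. In build GRCm38.p6 Hba-x lies at chr11:32276350-32276649 on the plus strand and Hbb-y at chr7:103853158-103853457 on the minus strand, and capitals mark, on either strand, the GATA site, here spelled GATAA, the box bound by factors of the KLF family, spelled CCACCC, the TATA box, with the letters TATAAA, and the box bound by factor NFY, with the letters CCAAT.
Hba-x promoter: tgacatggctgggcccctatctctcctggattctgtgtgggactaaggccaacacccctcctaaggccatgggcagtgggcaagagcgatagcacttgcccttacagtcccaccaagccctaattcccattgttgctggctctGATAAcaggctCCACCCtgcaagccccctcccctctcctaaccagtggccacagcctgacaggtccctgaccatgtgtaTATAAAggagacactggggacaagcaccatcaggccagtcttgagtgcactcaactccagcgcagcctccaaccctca
Hbb-y promoter: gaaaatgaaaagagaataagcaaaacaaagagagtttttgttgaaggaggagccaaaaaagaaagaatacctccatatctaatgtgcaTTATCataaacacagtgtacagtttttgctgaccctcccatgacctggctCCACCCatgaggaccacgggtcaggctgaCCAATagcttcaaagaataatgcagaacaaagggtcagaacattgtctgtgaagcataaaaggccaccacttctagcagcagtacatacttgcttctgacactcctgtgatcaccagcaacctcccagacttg
Hba-x held the GATA site 107, the KLF box 96 and the TATA box 28 bases before the start, and no match to the letters CCAAT. Hbb-y held the GATA site on the other strand 162, the KLF box 112 and the NFY box 83 bases before the start, and no match to the letters TATAAA. Other spellings of these sites were not searched. Over 32851 promoters, 25.4% held the GATA site, 31.5% the KLF box, 13.6% the TATA box and 37.4% the NFY box.

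Other blood and vessel genes did not all follow the globins. Of 8 tested endothelial and blood cell genes, 4 fell, 0 rose and 4 were not called, with a median difference of -2.35. Among all genes tested, 10.2% fell and 10.5% rose. The fourth decrease was Gata2, and Etv2, Kdr and Pecam1, the last 2 being surface proteins of endothelium, were not called, at 0.11, -0.08 and 0.07. The adult alpha-globin Hba-a1 read 6.40 and 6.70 in Nanog PGCLCs, 8.82 and 8.96 in cytokine PGCLCs, and 11.42 and 6.36 in mESCs. It was not called with all 6 arrays (-2.35 ± 1.28, adjusted p = 0.236), and was called lower in a fit of the 4 PGCLC arrays (-2.40 ± 0.13, adjusted p = 0.000144) and with mESC replicate 1 left out (adjusted p = 7.73e-05). Of 5 blood markers, Hba-x and Hbb-bh1 were tested, with summed intensities of 91 and 110 in Nanog PGCLCs, 1125 and 1184 in cytokine PGCLCs, and 117 and 100 in mESCs; the defining regulators Gata1, Klf1 and Tal1 had no named probe and are not analysed here. The part that blood cells play in these differences was not tested.

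**Figure D3:**
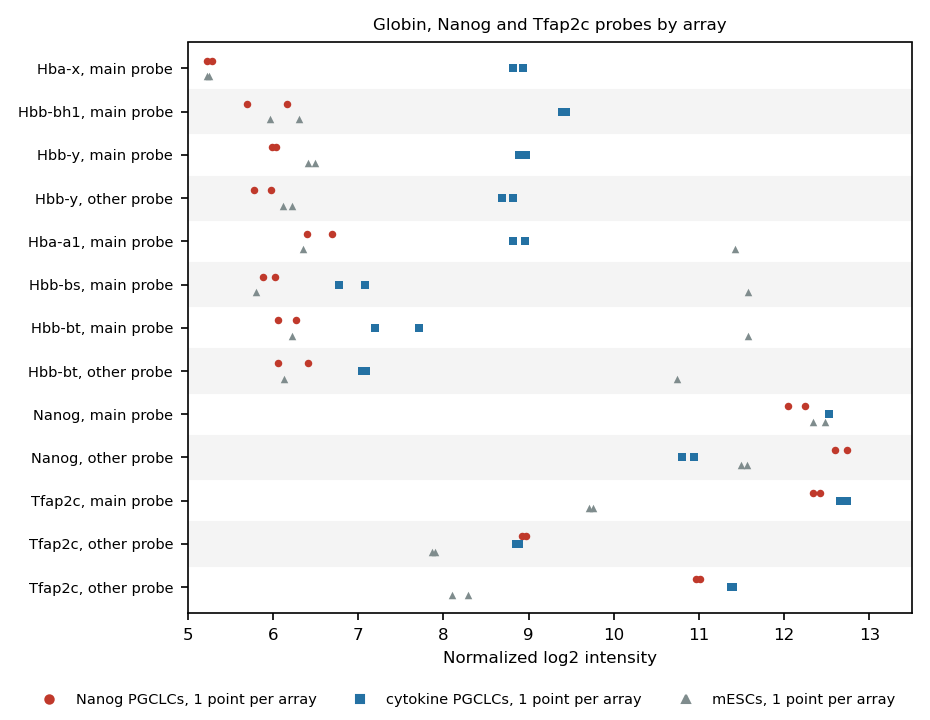
Normalized log2 intensity (horizontal axis) of every named probe of the globin genes, Nanog and Tfap2c, with 1 point per array for Nanog PGCLCs (red circles), cytokine PGCLCs (blue squares) and mESCs (grey triangles). The embryonic globins are high on the cytokine PGCLC arrays, the adult globins are highest on mESC replicate 1, and the 2 Nanog probes order the groups differently.

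Germ cell transcription factors, each read by its brightest probe, differed by under 2-fold. Of 14 tested, 2 rose, 6 fell (42.9%) and 6 were not called, with a median difference of -0.26, against 10.5% of all genes tested that rose and 10.2% that fell. One of the 6 that fell is Nanog, whose other probe rose by 1.80 as given above. Prdm14, a repressor needed for germ cell fate, read 7.85 and 7.70 in Nanog PGCLCs, 7.92 and 7.94 in cytokine PGCLCs, and 7.45 and 7.08 in mESCs, and was not called (-0.16, 95% interval -0.46 to 0.15). Tfap2c read 12.34 and 12.42 in Nanog PGCLCs, 12.66 and 12.74 in cytokine PGCLCs, and 9.76 and 9.71 in mESCs, so it was well above mESCs in both PGCLC groups and 1.25-fold lower in Nanog PGCLCs (-0.32 ± 0.09, adjusted p = 0.0473). Of its other probes, 1 was also called lower and 1 was not called. Larger decreases were those of Lin28a, an RNA-binding protein that blocks let-7 maturation (-0.88 ± 0.10, adjusted p = 0.000934), and Tfap2a, an AP2 factor of ectoderm and trophoblast (-0.94 ± 0.12, adjusted p = 0.00175), which was detected on 1 of the 2 Nanog PGCLC arrays. Nr5a2, a nuclear receptor, fell by 0.67 ± 0.12 and Sall4, a zinc finger factor, fell by 0.40 ± 0.11. Utf1, a chromatin protein of pluripotent cells, rose by 0.55 ± 0.09 and Ets2 rose by 0.39 ± 0.10. Pou5f1, at -0.29 (adjusted p = 0.0951), and Sox2, at 0.30 (adjusted p = 0.0676), were not called, and both were called without background correction, in the authors' value table and with an intensity trend. Without Nanog replicate 1, 4 factors fell, and without Nanog replicate 2, cytokine replicate 1 or cytokine replicate 2, 3 fell, with the losses among Nanog, Sall4 and Tfap2c. Tfap2c lost its call without any 1 of the 6 arrays and Ets2 without any 1 of the 4 PGCLC arrays.

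Early germ cell effectors split both ways. Of 21 tested, each read by its brightest probe, 4 rose (19%), 4 fell (19%) and 13 were not called, with a median difference of 0.09. Among those not called, a dimmer probe of Dppa4 was called higher (0.49) and a dimmer probe of Ifitm1 lower (-0.38). A further probe of each was not called. Over all genes tested, 10.5% rose and 10.2% fell. The RNA-binding proteins Dnd1 and Nanos3 fell, while Elavl2 (0.19) and Nanos1 (0.10), which also bind RNA, were not called. Dnd1, which guards germ cell transcripts from microRNAs, read 8.64 and 8.64 in Nanog PGCLCs, 9.61 and 9.66 in cytokine PGCLCs, and 7.68 and 7.76 in mESCs (-0.99 ± 0.09, adjusted p = 0.000396). Nanos3, which keeps migrating germ cells alive, read 8.92 and 9.03 in Nanog PGCLCs, 9.76 and 9.84 in cytokine PGCLCs, and 7.07 and 6.96 in mESCs (-0.83 ± 0.10, adjusted p = 0.0012). Both thus lay between mESCs and cytokine PGCLCs. Kit, the receptor of SCF, read 10.81 and 10.64 in Nanog PGCLCs, 11.41 and 11.42 in cytokine PGCLCs, and 10.77 and 10.70 in mESCs (-0.69 ± 0.10, adjusted p = 0.00286). Alpl, the alkaline phosphatase used to stain germ cells, fell by 0.54 ± 0.12.

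Rhox5, an X-linked reproductive homeobox gene, rose, with 11.88 and 11.70 in Nanog PGCLCs, 10.79 and 10.74 in cytokine PGCLCs, and 11.83 and 12.04 in mESCs (1.03 ± 0.11, adjusted p = 0.000832). Rhox6, another Rhox gene on the X chromosome, rose by 0.57 ± 0.12. Rhox9 was not called (0.10, 95% interval -0.24 to 0.43), although signal shared among Rhox genes leaves each value uncertain. Rhox13, outside the list and named after its values were seen, was called lower, by at least 1.14-fold. It was undetected at 6.24 and 6.68 in Nanog PGCLCs and detected at 7.10 and 7.06 in cytokine PGCLCs. Dnmt3l, a cofactor of de novo DNA methylation, rose by 0.39 ± 0.09, and Bst2, named after its values were seen, by 0.51. Dppa3 (Stella), which shields maternal methylation in the egg, read 11.67 and 11.76 in Nanog PGCLCs, 11.56 and 11.51 in cytokine PGCLCs, and 10.37 and 10.26 in mESCs, and Ifitm3 (Fragilis), an interferon-induced membrane protein of germ cells, read 13.12 and 13.09 in Nanog PGCLCs, 13.27 and 13.24 in cytokine PGCLCs, and 12.81 and 12.82 in mESCs. Neither was called, with intervals of -0.05 to 0.40 for Dppa3 and -0.36 to 0.05 for Ifitm3. The 4 effectors that rose were 1 without Nanog replicate 1, 2 without any other PGCLC array and 3 without either mESC array, with the losses among Rhox6, Dnmt3l and Bst2; Alpl lost its call without Nanog replicate 1 or either cytokine PGCLC array. Of 6 late germ cell genes tested, Tuba3a rose (0.51 ± 0.12) and 5 were not called, Ddx4 and Dazl among them, both at 0.02; Tuba3a lost its call without Nanog replicate 1, Nanog replicate 2 or cytokine replicate 2.

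Naive pluripotency factors split evenly, with 3 higher, 3 lower and 11 not called of 17 tested and a median of -0.10. The 17.6% called in each direction stood against 10.5% higher and 10.2% lower over all genes tested. Gbx2, a homeobox gene that LIF sustains in mESCs, read 9.54 and 9.29 in Nanog PGCLCs, 7.93 and 8.10 in cytokine PGCLCs, and 9.63 and 9.41 in mESCs (1.39 ± 0.13, adjusted p = 0.0004), so Nanog PGCLCs read close to mESCs. Tcl1 rose by 0.49 ± 0.09 and Fbxo15 by 0.45 ± 0.09, beside the decreases of Tbx3, Nr5a2 and Sall4 given above. Esrrb (0.17), Zfp42 (0.18) and Klf4 (-0.10) were not called, and Klf4 was not detected on both arrays of either PGCLC group, while mESCs read 8.80 and 8.74. The count of increases was 2 without either Nanog PGCLC array and 1 without either cytokine PGCLC array, and that of decreases 2 without Nanog replicate 2 or either cytokine PGCLC array, with the losses among Tcl1, Fbxo15 and Sall4.

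Nodal and primed epiblast genes, each read by its brightest probe, leaned to Nanog PGCLCs. Of 13, 5 were higher, 0 lower and 8 not called (median 0.31), against 10.5% of all genes tested called higher and 10.2% lower. A dimmer probe of Foxh1, a gene not called by its brightest probe, was called lower (-0.68). That probe was undetected in Nanog PGCLCs at 6.85 and 6.80 and detected at 7.56 and 7.44 in cytokine PGCLCs. Lefty1, a secreted Nodal inhibitor that Nodal itself induces, rose, with 12.06 and 12.03 in Nanog PGCLCs, 9.87 and 9.85 in cytokine PGCLCs, and 9.80 and 9.84 in mESCs, a 4.55-fold difference (2.19 ± 0.09, adjusted p = 1.34e-05). Its replicates agreed closely, and cytokine PGCLCs read close to mESCs. Other parts of the pathway, named after their values were seen, were not called: Lefty2 0.34, Nodal -0.33, the coreceptor Tdgf1 0.31, Smad2 -0.27 and Smad3 0.17. Nodal was called lower without background correction, in the authors' value table and with an intensity trend. Lefty2 was called higher in these settings and with median scaling. Dnmt3b, a de novo DNA methyltransferase of the epiblast, read 11.84 and 11.80 in Nanog PGCLCs, 11.19 and 11.14 in cytokine PGCLCs, and 12.38 and 12.21 in mESCs (0.66 ± 0.10, adjusted p = 0.00346). Otx2, a homeobox factor of the primed epiblast that opposes germ cell entry, read 8.71 and 8.72 in Nanog PGCLCs, 8.22 and 8.03 in cytokine PGCLCs, and 7.96 and 8.05 in mESCs (0.59 ± 0.10, adjusted p = 0.00651). Fgf5, an epiblast growth factor, was close to background at 7.11 and 7.24 in Nanog PGCLCs and was not detected at 6.70 and 6.73 in cytokine PGCLCs or 6.61 and 6.87 in mESCs, at least 1.21-fold higher (adjusted p = 0.0269). Fgf5 lost its call without any 1 of the 4 PGCLC arrays and Otx2 without cytokine replicate 2, which then left 3 increases.

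Several epithelial adhesion genes were higher too. Of 16 tested adhesion and epithelial genes, 6 rose (37.5%), 2 fell (12.5%) and 8 were not called (median 0.30). The shares over all genes tested were 10.5% and 10.2%. Cldn6, a tight junction protein of the epiblast, read 9.47 and 9.20 in Nanog PGCLCs, 7.28 and 7.72 in cytokine PGCLCs, and 6.23 and 5.92 in mESCs (1.83 ± 0.17, adjusted p = 0.000448). Cldn4 read 11.15 and 10.94 in Nanog PGCLCs, 9.60 and 9.64 in cytokine PGCLCs, and 9.82 and 9.74 in mESCs (1.43 ± 0.10, adjusted p = 0.000125). Cdh3, or P-cadherin, read 8.70 and 8.78 in Nanog PGCLCs, 7.25 and 7.42 in cytokine PGCLCs, and 6.47 and 6.39 in mESCs (1.40 ± 0.10, adjusted p = 0.000118). For each of these 3 the Nanog PGCLC arrays were above every other array. Cldn3 rose by 0.69 ± 0.12, and Cd9 (0.47) and Emb (0.43), named after their values were seen, also rose, while Cdh1, or E-cadherin, was not called at 0.29. Krt8, a keratin of simple epithelia, fell, with 7.14 and 7.11 in Nanog PGCLCs against 8.36 and 8.38 in cytokine PGCLCs (7.41 and 7.16 in mESCs; -1.25 ± 0.11, adjusted p = 0.000305). Cxcl12, the chemokine that guides migrating germ cells through the receptor Cxcr4, read 6.33 and 6.71 in Nanog PGCLCs, 8.83 and 9.01 in cytokine PGCLCs, and 5.59 and 5.55 in mESCs, at least 4.08-fold lower (adjusted p = 3.52e-05). Without Nanog replicate 2 the count of increases was 4, and without either cytokine PGCLC array 3, with the losses among Cldn3, Cd9 and Emb.

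WNT pathway genes moved in both directions, with 3 higher, 5 lower and 3 not called of 11. Their shares were 27.3% higher and 45.5% lower, against 10.5% and 10.2% of all genes tested. Axin2, a feedback target that WNT signals switch on, read 6.16 and 6.04 in Nanog PGCLCs, 8.62 and 8.63 in cytokine PGCLCs, and 7.63 and 7.87 in mESCs, at least 3.31-fold lower (adjusted p = 1.49e-05). Wnt3a, a ligand, went the other way, with 7.98 and 7.97 in Nanog PGCLCs, 6.43 and 6.12 in cytokine PGCLCs, and 7.53 and 7.21 in mESCs, at least 2.11-fold higher (adjusted p = 0.000252). Sfrp1, a secreted WNT inhibitor, read 8.94 and 8.92 in Nanog PGCLCs, 7.42 and 7.43 in cytokine PGCLCs, and 8.64 and 8.54 in mESCs (1.50 ± 0.09, adjusted p = 4.59e-05). A ligand and an inhibitor were thus higher and a target lower. Among the receptors, Fzd7 rose by 0.99 ± 0.11 and Fzd10 fell by 1.81 ± 0.11. Ccnd1 fell by 0.80 ± 0.10, as did Wnt5a (-0.78) and Sp5 (-0.64), both named after their values were seen. Sp5 was not detected on both arrays of either PGCLC group, and Wnt5a was not detected on every PGCLC array. Sp5 lost its call without Nanog replicate 2 or either cytokine PGCLC array.

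Genes of the other supplied cytokines were set side by side. Their counts stand beside the 10.5% of all genes tested that rose and the 10.2% that fell. Of 13 tested LIF and STAT3 genes, 4 rose, 0 fell and 9 were not called (median 0.12), while LIF was supplied to cytokine PGCLCs. Stat3, the transcription factor that LIF activates, read 7.47 and 7.64 in Nanog PGCLCs, 6.41 and 6.81 in cytokine PGCLCs, and 9.10 and 8.73 in mESCs, at least 1.58-fold higher (adjusted p = 0.00783). Socs3, a feedback inhibitor induced by STAT3, read 7.78 and 7.82 in Nanog PGCLCs, 7.18 and 7.21 in cytokine PGCLCs, and 8.71 and 8.82 in mESCs (0.60 ± 0.09, adjusted p = 0.00418). Jak1, the receptor's kinase, rose by 0.83 ± 0.12, and Gbx2 was the fourth gene. Of 12 tested EGF, SCF and ERK response genes, each read by its brightest probe, 4 fell, 1 rose and 7 were not called (median -0.17). Dusp4 was among those not called (0.38), but its dimmer probes were called higher, by 0.67 and 1.15. The last of these probes was not detected in cytokine PGCLCs. Dusp6, an ERK phosphatase that ERK signals induce, fell by 0.56 ± 0.10, Egr1, an immediate early factor, by 0.46 ± 0.13, and Ccnd1 and Kit as given above. Mras, the gene that rose, was detected on no PGCLC array, with 6.52 and 6.43 in Nanog PGCLCs against 6.06 and 6.02 in cytokine PGCLCs. Its call therefore compares signals below detection. Stat3 lost its call without Nanog replicate 2 or cytokine replicate 1, Egr1 and Mras without any 1 of the 4 PGCLC arrays, and Dusp6 without cytokine replicate 1, which left 2 decreases.

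Lineage genes outside the germ line were tested in small numbers, beside 10.5% of all genes tested that rose and 10.2% that fell. Of 6 trophoblast and amnion genes, 5 fell and 1 rose (median -0.73). Beside Cdx2, Krt8 and Tfap2a, Tead4, a trophoblast factor, fell by 0.52 ± 0.10, Peg10, an imprinted placental gene, was at least 1.05-fold lower, and Ets2 was the gene that rose. The trophoblast markers Cdx2 and Tfap2a summed to intensities of 192 and 183 in Nanog PGCLCs, 597 and 600 in cytokine PGCLCs, and 361 and 373 in mESCs, while Elf5 and Gata3 had no named probe. The part of trophoblast-like cells in these decreases was not tested. Of 6 fibroblast and matrix genes, 4 fell and 2 were not called (median -0.94). Sparc, a matrix protein, read 7.69 and 7.66 in Nanog PGCLCs, 9.37 and 9.23 in cytokine PGCLCs, and 10.35 and 10.35 in mESCs (-1.62 ± 0.09, adjusted p = 3.83e-05). Ccn2 fell by 1.55 ± 0.12, Vim, the intermediate filament protein of mesenchyme, was at least 1.61-fold lower, and Fn1, or fibronectin, fell by 0.58 ± 0.10. Sparc, Ccn2 and Vim were higher on the mESC arrays than on any PGCLC array. Without Nanog replicate 1 or either cytokine PGCLC array, 3 trophoblast genes fell; Ets2 lost its call without any 1 of the PGCLC arrays, and Fn1 without cytokine replicate 1.

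Few genes of other germ layers passed the detection filter. The shares over all genes tested, 10.5% higher and 10.2% lower, apply here too. Of 6 endoderm genes, Hhex and Apoe rose (Apoe 0.67 ± 0.15), Krt8, Dab2 (at least 1.20-fold) and Col4a1 (-0.64 ± 0.14, detected on 1 of the 2 Nanog PGCLC arrays) fell and Sox7 was not called. Of 6 surface ectoderm genes, Cldn4 rose and Krt8, Tfap2a and Grhl3 (at least 1.38-fold) fell. Among 4 neural genes, Sox21 rose by 0.98 ± 0.11 and Nes was at least 1.19-fold lower. Of 6 primitive streak and mesoderm genes, Bmp4 rose, Cdx2 and Evx1 fell and 3 were not called, and the streak factor T had no named probe. Of 4 Hox genes, Hoxd8 was at least 1.15-fold lower, a call lost without any 1 of the PGCLC arrays, and 3 were not called. Without Nanog replicate 1 or either cytokine PGCLC array no endoderm gene was called higher and without Nanog replicate 2 or cytokine replicate 2 only Krt8 of them was called lower; Nes lost its call without Nanog replicate 2 or either cytokine PGCLC array and Grhl3 without Nanog replicate 1 or either cytokine PGCLC array.

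**Figure D4:**
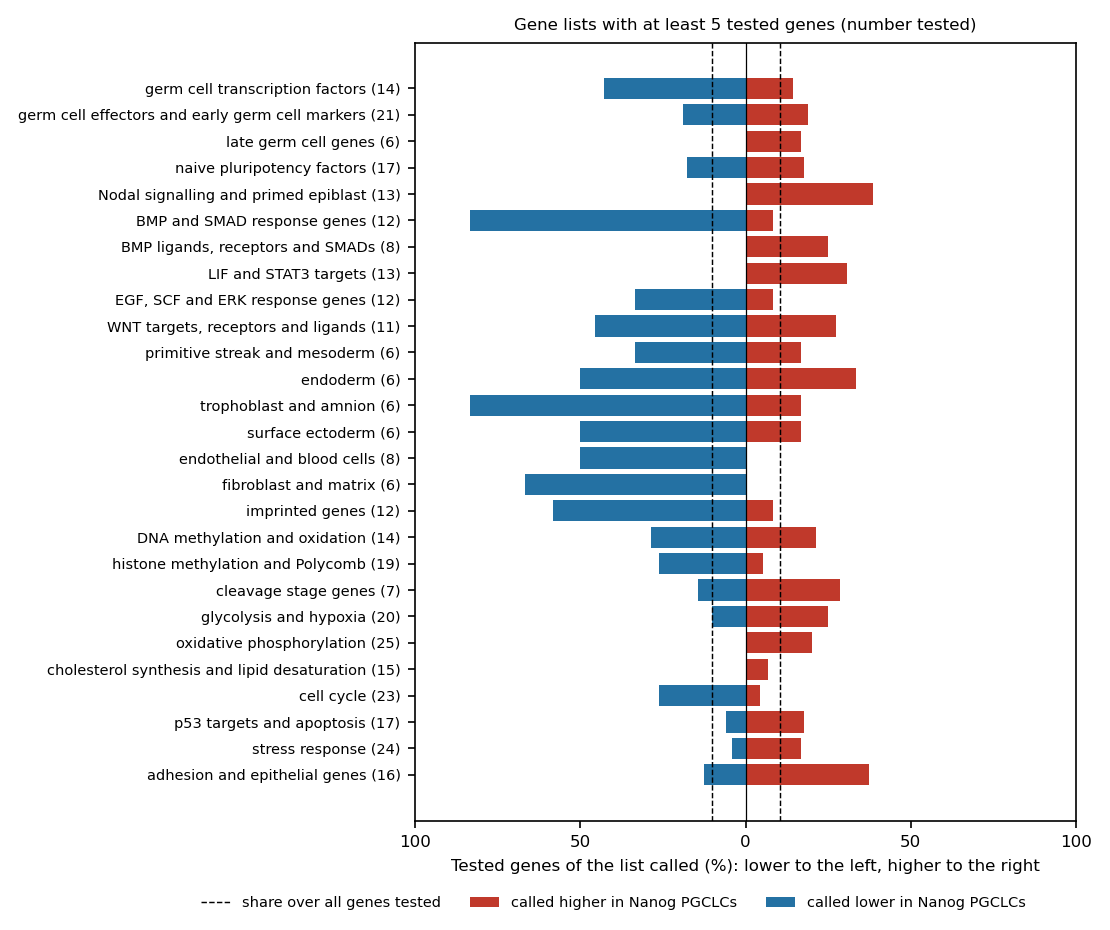
Share of the tested genes of each list that was called higher (red, to the right) or lower (blue, to the left) in Nanog PGCLCs, in percent, for lists with at least 5 tested genes, whose number is in brackets. Dashed lines mark the shares over all genes tested, 10.5% higher and 10.2% lower, and the BMP and SMAD response list reaches 83.3% lower.

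Imprinted genes are read from the maternal or the paternal copy only. Of 12 tested, 7 fell (58.3%), 1 rose (8.33%) and 4 were not called (median -0.33). Over all genes tested, 10.2% fell and 10.5% rose. Phlda2, a maternally expressed brake on placental growth, read 7.02 and 7.04 in Nanog PGCLCs, 9.13 and 9.19 in cytokine PGCLCs, and 6.95 and 7.19 in mESCs, a 4.38-fold decrease (-2.13 ± 0.11, adjusted p = 2.25e-05). Cdkn1c, the cyclin-dependent kinase inhibitor p57 and a neighbour of Phlda2 on chromosome 7, read 7.15 and 7.24 in Nanog PGCLCs, 7.98 and 8.12 in cytokine PGCLCs, and 7.70 and 7.78 in mESCs (-0.85 ± 0.10, adjusted p = 0.00109). Peg3, a paternally expressed zinc finger gene, read 9.60 and 9.60 in Nanog PGCLCs, 10.56 and 10.59 in cytokine PGCLCs, and 8.03 and 7.95 in mESCs (-0.98 ± 0.09, adjusted p = 0.0004). These 3 include genes of both parental origins. Mest, a paternally expressed gene, rose, with 9.92 and 9.92 in Nanog PGCLCs, 9.24 and 9.01 in cytokine PGCLCs, and 10.21 and 10.09 in mESCs (0.79 ± 0.11, adjusted p = 0.00259). Dlk1 was at least 1.26-fold lower, Igf2r fell by 0.52 ± 0.11, and Peg10 and Ndn, the last named after its values were seen, were also called lower. Without Nanog replicate 1 or cytokine replicate 2, 4 genes fell, and without Nanog replicate 2 or cytokine replicate 1, 3 fell, with the losses among Dlk1, Igf2r, Peg10 and Ndn.

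Of 14 genes of DNA methylation and oxidation, 3 rose (21.4%), 4 fell (28.6%) and 7 were not called (median 0.01). Over all genes tested the shares were 10.5% and 10.2%. Beside Dnmt3b and Dnmt3l, Tet1, an enzyme that oxidises methylcytosine (named after its values were seen), rose by 0.35. Uhrf2 fell by 0.62 ± 0.10 and the methyl-CpG-binding protein Mbd2 by 0.58 ± 0.11. Mbd1, of the same family, was called lower (adjusted p = 0.00233), with 6.38 and 6.56 in Nanog PGCLCs, where this probe was not detected, against 7.18 and 7.35 in cytokine PGCLCs. Gadd45b was at least 1.14-fold lower. The maintenance methyltransferase Dnmt1 was not called, at 0.07. Of 19 histone methylation and Polycomb genes, 1 rose (5.26%), 5 fell (26.3%) and 13 were not called (median -0.18). Phf19, a Polycomb-like accessory subunit, read 7.61 and 7.34 in Nanog PGCLCs, 6.62 and 6.49 in cytokine PGCLCs, and 5.71 and 5.55 in mESCs, at least 1.49-fold higher (adjusted p = 0.00198), while its relative Mtf2 fell by 0.58 ± 0.11, with 12.04 and 12.06 in Nanog PGCLCs against 12.60 and 12.66 in cytokine PGCLCs. Kdm2b, Kdm3a, Setdb1 and Kdm6a fell by 0.47, 0.40, 0.42 and 0.31, and the core subunits Ezh2 (-0.22), Eed (0.08) and Suz12 (0.03) were not called. Without Nanog replicate 1, 2 of these 5 decreases were called, and without any other PGCLC array 1; of the 3 methylation increases, that of Dnmt3b alone was called without any 1 of the 4 PGCLC arrays, and 2 of the 4 methylation decreases without cytokine replicate 1.

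The largest cell cycle differences were in a D-type cyclin and a Myc family gene. Of 23 tested, 1 rose (4.35%), 6 fell (26.1%) and 16 were not called (median -0.16). Over all genes tested these shares were 10.5% and 10.2%. Ccnd2, cyclin D2, was detected on both cytokine PGCLC arrays only, with 6.31 and 6.62 in Nanog PGCLCs, 9.14 and 9.20 in cytokine PGCLCs, and 6.94 and 6.75 in mESCs, at least 4.83-fold lower (adjusted p = 2.02e-05). Mycl, a Myc family factor, read 7.18 and 7.17 in Nanog PGCLCs, 9.19 and 9.24 in cytokine PGCLCs, and 8.13 and 8.24 in mESCs, a 4.12-fold decrease (-2.04 ± 0.09, adjusted p = 1.71e-05). Cdkn1a, the inhibitor p21, fell by 0.69 ± 0.11, so both cyclins and their inhibitors were among the decreases. Ccne1, cyclin E1, rose by 0.71 ± 0.14 and Top2a (named after its values were seen) fell by 0.38. Replication and mitosis genes such as Mcm2 (0.11), Cdk1 (-0.08) and Plk1 (0.04) were not called. Ccne1 lost its call without Nanog replicate 2 or cytokine replicate 1, and Top2a without any 1 of the PGCLC arrays.

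Genes of early development and metabolism gave the remaining large changes. Khdc3, a component of the subcortical maternal complex of the egg, rose, with 9.74 and 9.72 in Nanog PGCLCs, 6.63 and 6.99 in cytokine PGCLCs, and 9.89 and 10.14 in mESCs, 7.58-fold in the fit (2.92 ± 0.14, adjusted p = 2.03e-05). It was detected on 1 of the 2 cytokine PGCLC arrays, so that fold rests on a level at the edge of detection. Zscan4c, a marker of the short-lived state of mESCs that resembles the early cleavage embryo, fell, with 5.63 and 5.63 in Nanog PGCLCs, 8.56 and 8.63 in cytokine PGCLCs, and 6.89 and 7.15 in mESCs, at least 3.25-fold lower (adjusted p = 1.09e-05). Near-identical Zscan4 copies may share this probe, so which copy it reads is uncertain. Of 7 cleavage stage genes, Tcl1 was the other that rose and 4 were not called; Tcl1 lost its call without either cytokine PGCLC array.

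Bhlhe40, a helix-loop-helix repressor of clock and hypoxia responses, read 8.30 and 8.78 in Nanog PGCLCs, 6.08 and 6.01 in cytokine PGCLCs, and 5.54 and 5.46 in mESCs, at least 3.13-fold higher (adjusted p = 4.63e-05). Fabp3, a fatty acid-binding protein, read 11.32 and 11.48 in Nanog PGCLCs, 9.36 and 9.47 in cytokine PGCLCs, and 10.02 and 9.97 in mESCs, 3.96-fold (adjusted p = 2.25e-05). Aurkc, a kinase of meiosis and early cleavage, read 10.16 and 10.30 in Nanog PGCLCs, 8.56 and 8.72 in cytokine PGCLCs, and 8.99 and 8.96 in mESCs, 3.01-fold (adjusted p = 6.76e-05). In all 3 the Nanog PGCLC arrays stood above both other groups. The other increases among the 15 largest in the fit were H2-Bl (4.45-fold, detected on 1 of the 2 cytokine PGCLC arrays), Pdzk1 (3.45-fold), Tnfsfm13 (3.22-fold), and, against cytokine PGCLCs in which they were not detected, Cd59a (at least 3.02-fold), Rassf5 (at least 2.82-fold), Rnase4 (at least 2.08-fold), Myo1f (at least 1.74-fold) and Cbr3 (at least 1.44-fold). H2-Bl belongs to the class I histocompatibility genes, whose similar sequences make its signal uncertain. Myo1f, Cbr3 and Rnase4 were also detected in mESCs. The other decreases of the 15 were Tnfrsf22, a decoy receptor for the ligand TRAIL (at least 3.01-fold), Sct, which encodes the hormone secretin (at least 2.96-fold), and Ct55, an X-linked cancer/testis gene (at least 2.51-fold). All 30 of these changes were called in each of the 17 other settings in which their probe was fitted, leave-one-out fits among them.

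**Figure D5:**
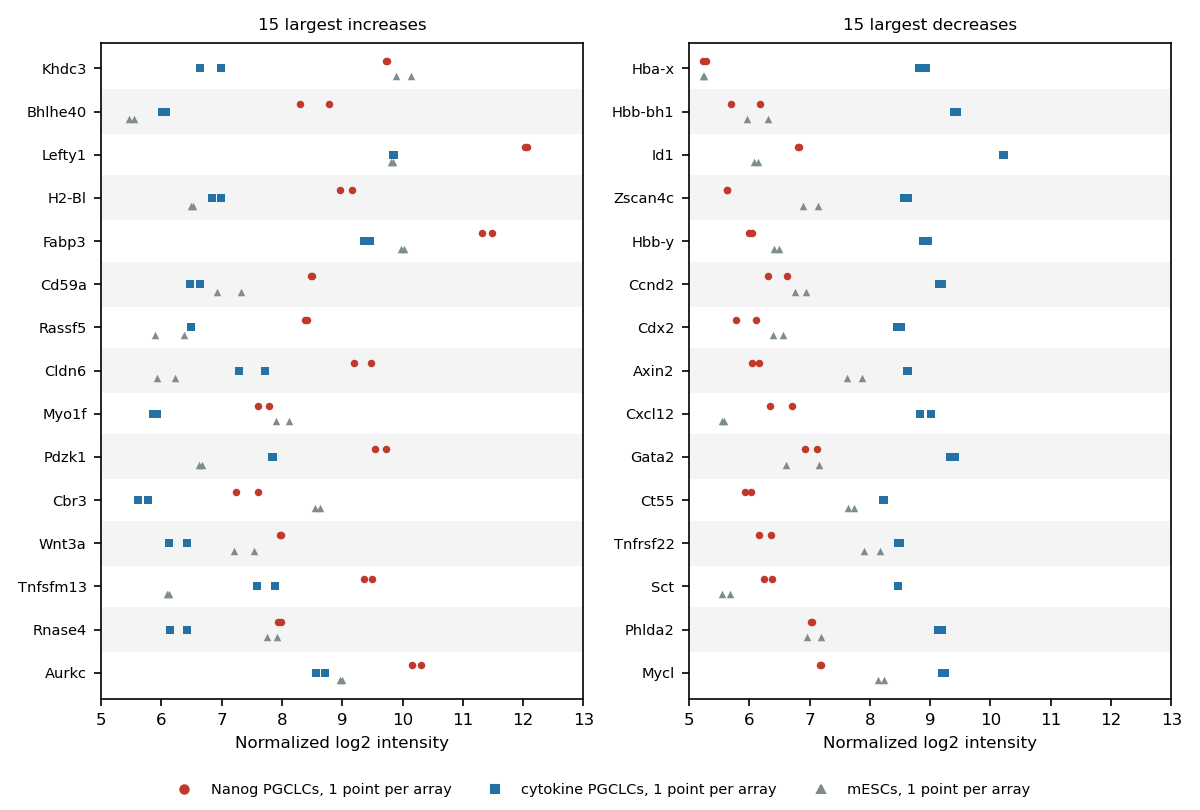
Normalized log2 intensity (horizontal axes) of the 15 genes with the largest fitted increases and the 15 with the largest fitted decreases in Nanog PGCLCs, with 1 point per array for Nanog PGCLCs (red circles), cytokine PGCLCs (blue squares) and mESCs (grey triangles). Both Nanog PGCLC arrays lie to one side of both cytokine PGCLC arrays for every gene, while mESCs sit with Nanog PGCLCs for some genes (Khdc3, Id1, Hba-x) and with cytokine PGCLCs for others (Lefty1, Rassf5).

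Differences in metabolic and stress genes were mostly under 2-fold. Of 20 glycolysis and hypoxia genes, 5 rose (25%), 2 fell (10%) and 13 were not called (median 0.19). Over all genes tested, 10.5% rose and 10.2% fell, and the other lists here stand beside the same shares. Pdk1, which keeps pyruvate out of mitochondria, read 10.20 and 10.15 in Nanog PGCLCs, 9.22 and 9.25 in cytokine PGCLCs, and 8.20 and 8.43 in mESCs (0.94 ± 0.10, adjusted p = 0.000933), and Vegfa rose by 0.94 ± 0.16. Tpi1 rose by 0.43 ± 0.10, Pfkp by 0.44 ± 0.11 and Aldoa (named after its values were seen) by 0.38, and Ddit4 fell by 0.60 ± 0.09 and Ldha by 0.38 ± 0.09. Of 25 oxidative phosphorylation genes, Ndufb2 (0.62 ± 0.11), Ndufb5 (0.41 ± 0.12), Ndufa1 (0.37 ± 0.10), Sdhc (0.31 ± 0.09) and Atp5a1 (0.31 ± 0.09) rose and 20 were not called (median 0.07). Of 15 cholesterol genes, Pmvk was at least 1.32-fold higher and 14 were not called. Xbp1, the transcription factor of the unfolded protein response, read 10.58 and 10.53 in Nanog PGCLCs, 9.52 and 9.49 in cytokine PGCLCs, and 9.43 and 9.44 in mESCs, 2.06-fold (1.04 ± 0.09, adjusted p = 0.000274). With it, Trib3 (0.71 ± 0.13), Srxn1 (0.66 ± 0.12) and Nqo1 (at least 1.44-fold) rose and Asns fell by 0.47 ± 0.10, out of 24 stress genes with a median of 0.04. Of 17 genes of the p53 response and apoptosis, Bcl2l11 (0.76 ± 0.10), Bok (0.60 ± 0.15) and Mcl1 (0.48 ± 0.13) rose, Cdkn1a fell and 13 were not called (median 0.01). Leaving out cytokine replicate 2 left 1 increase in the glycolysis list, leaving out cytokine replicate 1 left 0 in the oxidative phosphorylation list, against 1 or 2 without any other array, and 1 of the 3 apoptosis increases was called without Nanog replicate 2 or cytokine replicate 2. Xbp1, Pdk1, Ddit4, Bcl2l11 and Cdkn1a were called without any 1 of the arrays; every other gene named in this group lost its call without at least 1 PGCLC array.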

How the data were processed

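Expression was measured on Illumina mouse BeadChips, from biotinylated copies of column-purified RNA, per the labels' protocols. The deposited intensities are scanner summaries of 45281 probes per array, neither background corrected nor normalized judging by the values. Detection p-values were deposited for each probe, per the file headers. The table of values that the authors supplied gives log2 values for the 11542 probes detected on at least 1 array, close to uncorrected ones (lowest correlation with log2 raw intensity 0.999448), and the submitters' processing notes list limma.

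Here intensities were corrected with normexp (offset 16, 936 negative controls implied by the detection p-values), quantile normalized and put on the log2 scale with limma 3.58.1 in R 4.3.3. Probes detected on at least 2 arrays (10673) entered 1 model of 3 groups (lmFit and eBayes, two-sided, Benjamini-Hochberg over all of them), tested on simulated data first. Samples were grouped by their labels. The raw median intensity was 226.2 to 294.3 per array, and 2 arrays per group limit the precision. Gene names came from the platform annotation, where 10057 probes had 1 symbol, 4 several and 1481 none, and 10050 matched RefSeq. A gene was read by its brightest named probe. Array coordinates are not given, since its build was not stated in what was used here.

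Named genes were the 15 largest called increases and decreases of at least 2-fold with separated arrays, up to 6 called genes with the smallest adjusted p of each of 29 lists, and a panel of 29 genes, of which 27 were tested. The members, lists and panel were chosen with earlier results of these data known. Of 641 names on the lists, 322 were tested, and some genes are on several lists. Arrays with the same replicate number did not deviate together in the PGCLC groups (correlation of deviations 0.0015), so no pairing entered the fit. Alternatives covered background correction, offset, scaling, the authors' values, filters, 1 probe a gene, the variance model, the arrays fitted and each array left out.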

Additional observations from a re-analysis of the deposited data

How the results depend on the processing

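With all 6 arrays 1108 probes were called higher and 1037 lower in Nanog PGCLCs, 122 and 118 of them at 2-fold or more. At 2-fold or more, 17 were higher and 33 lower without background correction, 17 and 39 in the authors' value table, and 64 and 54 where only probes detected on all 4 PGCLC arrays were fitted; an offset of 50 gave 73 higher. The lower count was 654 with median scaling, where 64.8% of calls were higher, and 666 with no filter on dim probes. Over the fits that left out 1 array, 460 to 1099 were higher and 334 to 1016 lower, 113 to 132 and 120 to 124 at 2-fold or more. In those fits the lone array of a group is assumed to vary like the others. Replicate numbers as a block gave 2074 called probes, 1955 of them shared with the 2145 of the fit without it; the numbers are shared labels only, as deviations of same-numbered arrays correlated at 0.0015 between the PGCLC groups. The block ended the call of 7 named genes. Of 133 named genes, 124 were called, 71 of these in every one of 17 settings that fitted their probe, and none was called in the opposite direction in any of them. The 53 calls lost in at least 1 setting were lost most often without cytokine replicate 1 (46) and cytokine replicate 2 (41), while 1 was lost with an offset of 50, in the authors' table or with an intensity trend. Pou5f1 and Sox2 gained a call in 3 settings. Dim probes limit the folds: 242 called genes were not detected in the lower group, and 66 of them passed 2-fold in the fit.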

Other observations

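Gene families picked after their values were seen showed further differences. Of 41 tested genes named Rab, small GTPases of vesicle traffic and proteins named for them, 8 were higher in Nanog PGCLCs, 2 lower and 31 not called, with a median log2 difference of 0.14, against 10.5% of all genes tested called higher and 10.2% called lower; the counts of the smaller families that follow stand beside the same shares. Rab25, a Rab of recycling endosomes in epithelia, read 9.24 and 9.01 in Nanog PGCLCs, 7.65 and 7.73 in cytokine PGCLCs, and 6.66 and 6.84 in mESCs (1.43 ± 0.12, adjusted p = 0.000206 in limma), and Rab24 was lower (-0.99 ± 0.10, adjusted p = 0.000636). Of 7 annexins, which bind membranes in the presence of calcium, 4 were higher and 3 not called. Anxa5 read 7.36 and 6.99 in Nanog PGCLCs and was not detected at 5.74 and 5.75 in cytokine PGCLCs, at least 1.21-fold higher. Hmgn5, an X-linked nucleosome-binding protein, read 11.79 and 11.77 in Nanog PGCLCs, 10.53 and 10.59 in cytokine PGCLCs, and 8.10 and 8.12 in mESCs (1.22 ± 0.09, adjusted p = 0.000122), while Hmgn1, Hmgn2 and Hmgn3 were not called.

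Of 6 Pramel genes, a family of near-identical copies whose signals cannot be assigned with certainty, Pramel16 (at least 1.67-fold), Pramel39 (at least 1.53-fold) and Pramel37 (at least 1.08-fold) were lower in Nanog PGCLCs and undetected there, as Zscan4c was, Pramel13 was higher (0.49 ± 0.14) and 2 were not called. Xlr4a, an X-linked gene of a similar multicopy kind, read 8.94 and 9.09 in Nanog PGCLCs, 10.79 and 10.82 in cytokine PGCLCs, and 11.04 and 11.08 in mESCs (-1.79 ± 0.10, adjusted p = 2.98e-05). Sptb, the beta-spectrin of red cells, read 6.99 and 7.32 in Nanog PGCLCs, 8.27 and 8.57 in cytokine PGCLCs, and 5.60 and 5.62 in mESCs (-1.26 ± 0.14, adjusted p = 0.000947), in the direction of the embryonic globins. Of 8 meiosis and oocyte genes, Rec114, a meiotic recombination gene, was higher by 1.04 ± 0.12, as were Aurkc and Khdc3, Zp3, an egg coat protein, was at least 1.29-fold lower, and 4 were not called.

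The 2 adult beta-globins read, for the brighter probe of each, 5.89 and 6.02 (Hbb-bs) and 6.06 and 6.27 (Hbb-bt) in Nanog PGCLCs, 7.08 and 6.78 (Hbb-bs) and 7.72 and 7.19 (Hbb-bt) in cytokine PGCLCs, and 11.58 and 5.80 (Hbb-bs) and 11.58 and 6.23 (Hbb-bt) in mESCs. Of the 6 probes that differed by over 1 on the log2 scale between the mESC arrays, 4 were globin probes, against 0 of 2 such probes between the Nanog PGCLC arrays and none between the cytokine PGCLC arrays.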
